A study of Homo sapiens with 3 samples.

Results

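Splicing regulators decide which exons of a pre-messenger RNA are kept. SR proteins, which carry arginine-serine repeats, bind exonic enhancers and mostly favour exon inclusion, whereas heterogeneous nuclear ribonucleoproteins (hnRNPs) often bind silencers and oppose it. CLK and SRPK kinases phosphorylate the SR proteins and so set their location and activity, and tissue regulators such as RBFOX2 and MBNL1 act on smaller sets of exons. The set has a link to the gene silenced in this study through the reader protein MORF4L1 (MRG15). MORF4L1 binds methylated lysine 36 of histone H3, a residue that MMSET methylates, and is known to bring the repressor PTBP1 to some exons. The array does not measure this methylation or its degree.

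The set comprised 42 genes listed by name: 9 SR protein genes, 2 TRA2 genes, 17 hnRNP genes, 4 other repressors and tissue regulators, 6 kinase genes, 3 genes of 3' splice site and branch point recognition, and MORF4L1. On the array 41 of the 42 had at least 1 probe set annotated to a single gene symbol, 164 probe sets in all, and SRSF2 had none. The whole table held 54675 probe sets and 19775 named genes. Where a gene had several probe sets, the brightest on average stood for it, and all 41 measured genes were among the 13296 that exceeded the median signal of an array on at least 1 array. Most were bright: 37 of the 41 lay in the brightest 3 deciles of these genes.

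Messenger RNA was measured in KMS11, a human multiple myeloma line with the t(4;14) translocation, which brings immunoglobulin enhancers close to MMSET, the gene of a histone methyltransferase now called NSD2. The cells received lentiviruses for shMMSET#2 or shMMSET#4, short hairpin RNAs against MMSET, or for shLuc, a hairpin against luciferase, and RNA was taken at 48 h. All 3 groups therefore share lentiviral infection with polybrene, and no sorting or drug selection of infected cells is given in the labels. Each group had 1 array, so no difference could be tested, and "lower" and "higher" describe these arrays at a size of at least 1.5-fold. Both hairpins were set against the same shLuc array, so their ratios are not independent of each other.

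As a measure of spread, 95% of tested genes differed by less than 2.37-fold between the shMMSET#4 and shMMSET#2 arrays, and 95% of the brightest 3 deciles by less than 1.98-fold. This spread includes real differences between the hairpins. The targeted gene NSD2 had signals of 7032 with shMMSET#2 and 7476 with shMMSET#4, against 10300 with shLuc, on its brightest probe set, which is 1.46-fold and 1.38-fold lower and inside that spread. Over its 6 probe sets the lowest and highest log2 ratios were -2.69 and -0.54 with shMMSET#2, and -1.62 and 0.05 with shMMSET#4. All 9 plasma cell markers were above the floor of 41.2 on every array. Their summed signal was 30896 with shMMSET#2, 61341 with shMMSET#4 and 58550 with shLuc. The markers did not move together. With shMMSET#2, SLAMF7 was 5.85-fold and IRF4 2.86-fold lower, and only CD38 was above shLuc, at 1.37-fold. With shMMSET#4, MZB1 was 3.53-fold and CD38 1.60-fold higher, while SLAMF7 and FCRL5 were 1.51-fold and 1.80-fold lower. Markers of other cell types were mostly dim, and their sums are given in the order shMMSET#2, shMMSET#4 and shLuc. The 5 T cell markers summed to 155, 216 and 361, with 4, 3 and 2 of them at or under the floor. The 3 endothelial markers summed to 51.4, 44.4 and 91.7 (3, 3 and 2 at or under the floor), and the 3 myeloid markers to 122, 28.4 and 174 (2, 3 and 1). The shLuc array was highest for these lists and for the 2 erythroid markers (234, 276 and 354). It was not highest for the 5 fibroblast markers (461, 265 and 436, with 3, 4 and 1 at or under the floor) or the 3 B cell markers (778, 1087 and 1051). The 4 epithelial markers summed to 4456, 11076 and 8702, nearly all of it EPCAM, while KRT19 was under the floor on all arrays, KRT5 with shMMSET#2 and shLuc, and CDH1 was just above the floor with shMMSET#2 and had 339.9 with shMMSET#4 and 594.5 with shLuc. The log2 difference between the 3' and 5' control probe sets of ACTB was 1.14 with each hairpin and 1.70 with shLuc, whereas that of GAPDH was 0.10, 0.0019 and 0.04. The part of these differences in the results that follow was not tested.

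Most splicing regulators kept their signal within 1.5-fold of shLuc. This held with both hairpins for 32 of the 41 genes (78.0%), against 44.9% of all tested genes. In the brightest 3 deciles the share was 59.3%. Most members lay in the brightest decile alone, where 95% of genes were within 1.85-fold between the hairpin arrays. Over the brightest 3 deciles that limit was 1.98-fold, so they are a dimmer and more variable background than the members. With shMMSET#2, 4 genes were lower and 2 higher, that is 9.76% and 4.88% of the set, against 22.5% and 16.2% of all tested genes and 13.7% and 15.9% of the brightest 3 deciles. With shMMSET#4, 3 were lower and 4 higher, that is 7.32% and 9.76%, against 20.6% and 17.3% of all tested genes and 11% and 15.5% of the brightest 3 deciles. Only 4 genes passed 1.5-fold in the same direction with both hairpins: RBFOX2, CLK1 and HNRNPA1 were lower, against 11.9% of all tested genes, and MORF4L1 was higher, against 8.6%. In the brightest 3 deciles those background shares were 5.44% and 9.5%. The members' own shares were 7.32% lower and 2.44% higher. At 2-fold, 2 members were lower and 2 higher with shMMSET#2, against 10.7% and 5.69% of all tested genes. With shMMSET#4, 1 was lower and 0 higher at 2-fold, against 8.95% and 6.74%, and with both hairpins 1 was lower and 0 higher, against 4.35% and 2.83%. Scaling the arrays to equal medians, which put the median over all tested genes at a log2 ratio of 0.25 and 0.34, gave 2 lower and 13 higher members with shMMSET#2, 1 and 14 with shMMSET#4, and 1 and 8 with both. The higher members were then 31.7%, 34.1% and 19.5% of the set, against 30.1%, 34.7% and 19.7% of all tested genes under the same scaling. The lower ones were 4.88%, 2.44% and 2.44%, against 13.2%, 10.1% and 5.28%. The median log2 ratio of the set, as the authors scaled it, was 0.10 with shMMSET#2 and 0.06 with shMMSET#4, against -0.04 and -0.02 over all tested genes and 0.06 and 0.04 over the brightest 3 deciles.

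**Figure D1:**
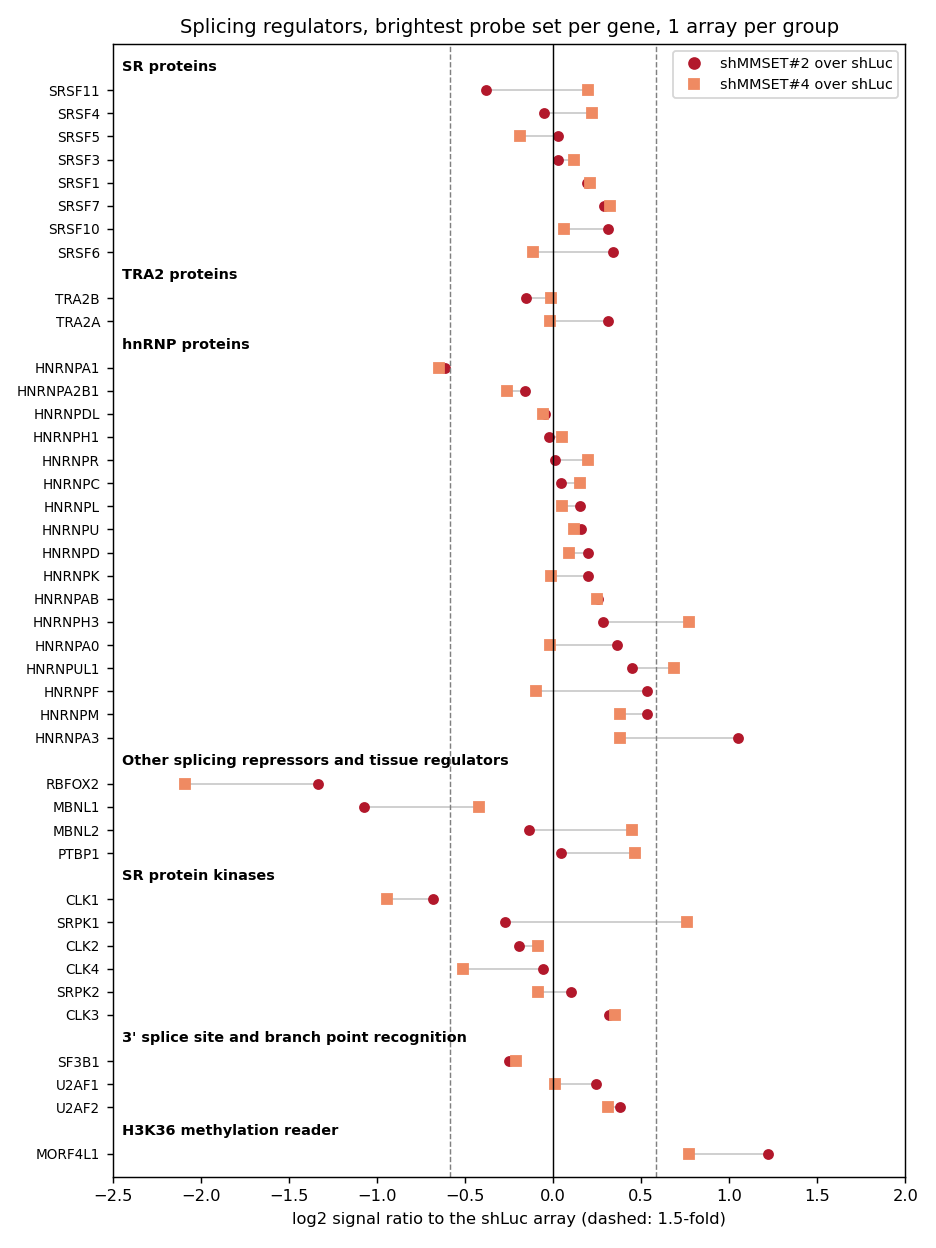
Log2 ratio of signal with shMMSET#2 (circles) and shMMSET#4 (squares) to the shLuc array for the 41 measured splicing regulators, on the brightest probe set of each gene and grouped by role, with 1 array per group. Dashed lines mark 1.5-fold, and 32 genes lie between them with both hairpins, while RBFOX2 extends to -2.09 and MORF4L1 to 1.22.

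The promoters of CLK1 and MORF4L1, members on opposite sides of shLuc with both hairpins, are shown for context, as the array measures transcript level and not promoter activity. They are the 250 bases before the outermost annotated start of each gene, read 5′ to 3′ on the gene's strand from RefSeq promoters of GRCh38.p14. CLK1 lies at chr2:200864659-200864908 on the minus strand and MORF4L1 at chr15:78872640-78872889 on the plus strand. Capitals mark GC boxes (GGGCGG) and matches to the NRF1 motif found on either strand, with no overlap between them here.
CLK1: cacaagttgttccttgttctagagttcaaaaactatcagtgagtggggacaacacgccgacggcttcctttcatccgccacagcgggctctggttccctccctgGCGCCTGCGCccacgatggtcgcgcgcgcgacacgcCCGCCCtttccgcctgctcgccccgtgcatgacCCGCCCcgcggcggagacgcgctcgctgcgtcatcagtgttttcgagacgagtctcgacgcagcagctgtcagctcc
MORF4L1: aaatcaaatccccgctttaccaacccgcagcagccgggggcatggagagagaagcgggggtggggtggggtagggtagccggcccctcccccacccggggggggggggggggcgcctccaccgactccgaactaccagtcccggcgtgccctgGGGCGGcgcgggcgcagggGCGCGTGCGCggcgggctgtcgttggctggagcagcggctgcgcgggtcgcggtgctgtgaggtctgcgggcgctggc

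The CLK1 window held 2 GC boxes and 1 NRF1 motif, and the MORF4L1 window held 1 of each. The same window was available for 34 of the 41 measured members and for 24884 genes in all. An NRF1 motif was present in 7 of the 34 (20.6%) and in 5.57% of all windows, and a GC box in 64.7% and 41.7%. An E-box (CACGTG), the site that MYC family proteins are known to bind, was in 8 of the 34 (23.5%) and in 6.44% of all windows: those of CLK2, CLK4, HNRNPA3, HNRNPD, HNRNPDL, HNRNPH3, HNRNPM and SF3B1. A CCAAT box (CCAAT) was in 38.2% and 33.4%, a TATA box (TATAAA) in 11.8% and 11.4%, and the CRE (TGACGTCA) in none of the 34 and in 1.79% of all windows. Members' windows also had a median GC content of 65.4%, against 57.6% over all windows. These motifs were sought on both strands, a match is a string of letters and not a bound site, and the difference in base composition was not taken out of the comparison.

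No SR protein gene passed 1.5-fold on its brightest probe set. All 8 measured genes stayed inside it with both hairpins, at log2 ratios of -0.38 to 0.34 with shMMSET#2 and -0.19 to 0.32 with shMMSET#4, and with medians of 0.11 and 0.16. In the brightest 3 deciles, 13.7% of genes were lower and 15.9% higher with shMMSET#2, and 11% and 15.5% with shMMSET#4. SRSF3, the smallest of the classical SR proteins, had signals of 17416 with shMMSET#2, 18571 with shMMSET#4 and 17083 with shLuc. SRSF1, a splicing factor that can act as an oncogene, had 12598, 12777 and 11033 on the same arrays. Across the 3 arrays neither gene moved by more than 1.16-fold from shLuc on this probe set. SRSF7 had 12087 with shMMSET#2 and 12379 with shMMSET#4, against 9898 with shLuc, at 1.22-fold and 1.25-fold. For SRSF11 the hairpins lay on opposite sides of shLuc, with 9746 with shMMSET#2, 14571 with shMMSET#4 and 12694 with shLuc. The other SR protein genes were SRSF4, SRSF5, SRSF6, whose signals were 7980, 5841 and 6314 on the 3 arrays, and SRSF10, which acts as a repressor when dephosphorylated and had 6434, 5416 and 5189.

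The TRA2 genes encode SR-like enhancers of exon inclusion. TRA2B had signals of 16905 with shMMSET#2, 18676 with shMMSET#4 and 18816 with shLuc, and TRA2A had 4801, 3810 and 3863. Their log2 ratios were -0.15 and 0.31 with shMMSET#2 and -0.011 and -0.020 with shMMSET#4, all inside 1.5-fold.

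Among the 17 hnRNP genes, 13 stayed within 1.5-fold with both hairpins, and HNRNPA1 alone was lower with both. Of all tested genes 11.9% were lower with both, and of the brightest 3 deciles 5.44%. HNRNPA1, which binds exonic and intronic silencers, had signals of 9288 with shMMSET#2 and 9082 with shMMSET#4, against 14241 with shLuc, which is 1.53-fold and 1.57-fold lower. Both hairpin arrays were below shLuc on its other 2 single-symbol probe sets too, with log2 ratios from -0.76 to -0.45. The difference is just past the threshold and lies inside the spread between the hairpin arrays. It falls short of 1.5-fold with at least 1 hairpin under 4 of 8 alternative settings. After scaling to equal medians, for example, the log2 ratios are -0.30 and -0.27. The other 4 settings changed only the floor or the filter and left its values unchanged. HNRNPA1 has many processed pseudogenes, its brightest probe set is of the _x_at type, which can cross-hybridise, and 2 further probe sets with several symbols were not used.

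The highest hnRNP gene with shMMSET#2 was HNRNPA3, a relative of HNRNPA1. It had signals of 10925 with shMMSET#2 and 6855 with shMMSET#4, against 5276 with shLuc, so that shMMSET#2 was 2.07-fold higher and shMMSET#4 1.30-fold higher. Its other probe sets did not give 1 size: the log2 ratios were 0.20 and 1.49 with shMMSET#2 and -0.37 and 0.89 with shMMSET#4. HNRNPH3, which binds G-rich runs, had 6171 with shMMSET#2 and 8656 with shMMSET#4, against 5066 with shLuc, and was 1.71-fold higher with shMMSET#4 alone. On its 3 other probe sets the log2 ratios with shMMSET#4 ran from 0.32 to 0.51. HNRNPUL1, an hnRNP U-like protein, had 4943 and 5818, against 3620 with shLuc, at 1.37-fold and 1.61-fold, and its dimmer probe set gave log2 ratios of -0.29 and -0.11.

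Several hnRNP genes were nearly level across the arrays on their brightest probe sets. HNRNPA2B1, which packages nascent transcripts, had signals of 36492 with shMMSET#2, 34013 with shMMSET#4 and 40779 with shLuc. HNRNPH1 had 18702, 19667 and 19021, and HNRNPK, which binds C-rich sequence, had 20985, 18085 and 18270. On these probe sets they differ from shLuc by at most 1.20-fold. A second bright HNRNPK probe set had 16163 and 16267, against 11413 with shLuc, at log2 ratios of 0.50 and 0.51. Other HNRNPH1 probe sets gave -0.30 and -0.27, and 0.34 and 0.45. An HNRNPA2B1 probe set gave 0.02 and -0.40. HNRNPM was 1.45-fold and 1.30-fold above shLuc (12183 and 10951, against 8421). On their brightest probe sets, HNRNPD, HNRNPDL, HNRNPL, HNRNPR, HNRNPU, HNRNPC and HNRNPAB differed from shLuc by at most 1.19-fold with either hairpin. HNRNPA0 differed by 1.29-fold with shMMSET#2 and 1.01-fold with shMMSET#4. Some other probe sets of these genes differed more. Another HNRNPD probe set had 5981 with shMMSET#2 and 2085 with shMMSET#4, against 6245 with shLuc. With shMMSET#4 the log2 ratio was -0.62 on an HNRNPDL probe set and 1.86 on a dim HNRNPR probe set. With shMMSET#2 it was 0.96 on a dim HNRNPU probe set. The median log2 ratio of the hnRNP genes, on brightest probe sets, was 0.20 with shMMSET#2 and 0.09 with shMMSET#4.

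RBFOX2 had the lowest ratio of the set with each hairpin. RBFOX2 binds a UGCAUG element and acts on exons in a way that depends on its position, and it had signals of 655 with shMMSET#2 and 387 with shMMSET#4, against 1649 with shLuc. Both hairpin arrays were far below the shLuc array, by 2.52-fold and 4.26-fold, and genes of this brightness differed by up to 2.29-fold between the hairpin arrays for 95% of genes. The next probe sets gave 359 and 194, against 1131 with shLuc, and 284 and 190, against 903 with shLuc. All 3 probe sets above the median signal were thus lower with both hairpins, at log2 ratios of -1.67 to -1.33 with shMMSET#2 and -2.54 to -2.09 with shMMSET#4. It was 2-fold lower with both hairpins, which 4.35% of all tested genes were. It was also lower under all 7 alternative settings in which it could be measured, with log2 ratios from -1.35 to -1.01 and from -2.09 to -1.71. Every single-symbol probe set above the median that measured it ended in _s_at or _x_at.

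MBNL1, a repressor known for its sequestration in myotonic dystrophy, was lower with shMMSET#2. It had signals of 7011 with shMMSET#2 and 11003 with shMMSET#4, against 14734 with shLuc, which is 2.10-fold lower and 1.34-fold lower. On its 3 brightest probe sets the log2 ratios were -1.12 to -0.98 with shMMSET#2 and -0.42 to -0.29 with shMMSET#4, whereas a dimmer probe set (250 and 167, against 530 with shLuc) was lower with both. MBNL2, its paralog, had 488 with shMMSET#2, 733 with shMMSET#4 and 536 with shLuc. PTBP1, which binds pyrimidine tracts, had 5648 and 7547, against 5478 with shLuc, within 1.38-fold with both hairpins, and 5 further PTBP1 probe sets with several symbols were not used.

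Of the kinase genes, CLK1 was lower with both hairpins, as 11.9% of all tested genes were, and 4 of the 6 were within 1.5-fold with both. CLK1, a nuclear kinase of the arginine-serine domain, had signals of 1836 with shMMSET#2 and 1530 with shMMSET#4, against 2941 with shLuc, which is 1.60-fold and 1.92-fold lower on its 1 probe set. Both ratios are inside the 2.12-fold spread of its decile, and after scaling to equal medians they shrink to -0.36 and -0.56 on the log2 scale, short of 1.5-fold. CLK4, a close relative, had 933 and 683, against 972 with shLuc, and its 2 dimmer probe sets above the median had log2 ratios of -0.23 and -0.83 with shMMSET#2 and -0.92 and -0.97 with shMMSET#4. CLK2 (2019 and 2170, against 2307 with shLuc), CLK3 (1032 and 1058, against 828) and SRPK2 (4901 and 4314, against 4572) differed by at most 1.28-fold.

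SRPK1, the mainly cytoplasmic kinase that loads SR proteins for nuclear import, differed most between the hairpins. It had a signal of 4580 with shMMSET#4, against 2238 with shMMSET#2, a difference of 2.05-fold, while shLuc had 2700. Relative to shLuc it was 1.70-fold higher with shMMSET#4 and at a log2 ratio of -0.27 with shMMSET#2. A dimmer probe set ran the same way, with 251 with shMMSET#4, 143 with shMMSET#2 and 195 with shLuc.

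In the direct comparison of the hairpins, 3 genes were at least 1.5-fold higher with shMMSET#4 than with shMMSET#2 (SRPK1, MBNL1 and MBNL2), where 16.9% of all tested genes were, and 3 were lower (RBFOX2, HNRNPA3 and HNRNPF), where 13.6% were. HNRNPF, a G-run binder, had 1427 with shMMSET#4, against 2207 with shMMSET#2, and 1525 with shLuc. In the brightest 3 deciles those shares were 9.95% and 7.12%. Dimmer probe sets of the MBNL genes did not all agree: for MBNL2, 1 had 91.3 with shMMSET#4, against 142 with shMMSET#2, a log2 ratio of -0.64, and another had 88.1 with shMMSET#4, against 33.1 with shMMSET#2, which is under the floor. For MBNL1, the dimmer probe set that was lower with both hairpins gave -0.59 for shMMSET#4 over shMMSET#2, while the 3 brightest gave 0.65 to 0.83. The threshold falls between MBNL2, at a log2 ratio of 0.585, and SRSF11, at 0.580. Only SRPK1 passed 2-fold between the hairpins, as 6.6% of all tested genes did upward and 3.72% downward, and 35 of the 41 genes (85.4%) were within 1.5-fold, against 69.5% of all tested genes and 82.9% of the brightest 3 deciles.

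The genes of 3' splice site recognition did not pass 1.5-fold on their brightest probe sets. SF3B1, the branch point subunit that is often mutated in blood cancers, had signals of 15432 with shMMSET#2, 15826 with shMMSET#4 and 18329 with shLuc. U2AF1, which contacts the AG at the intron's end, had 9382, 7990 and 7934, and U2AF2, which binds the pyrimidine tract, had 4606, 4402 and 3543. Their log2 ratios on these probe sets spanned -0.25 to 0.38 with shMMSET#2 and -0.21 to 0.31 with shMMSET#4. With shMMSET#4, 1 of the 5 SF3B1 probe sets was lower, at -0.92 (704 and 517, against 979 with shLuc). Dimmer U2AF1 probe sets were lower with shMMSET#4 too, at -0.68 and -0.94.

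MORF4L1 was the highest member with shMMSET#2 and was higher with both hairpins on every probe set. Its brightest probe set had signals of 29991 with shMMSET#2 and 21964 with shMMSET#4, against 12872 with shLuc, which is 2.33-fold and 1.71-fold higher. The other probe sets gave 22826 and 16138, against 7871 with shLuc, and 13377 and 10215, against 3531 with shLuc. All 3 probe sets had the same order of arrays, with shMMSET#2 highest and shLuc lowest, and log2 ratios of 1.22 to 1.92 with shMMSET#2 and 0.77 to 1.53 with shMMSET#4. In its decile 95% of genes were within 1.85-fold between the hairpin arrays, so the brightest probe set exceeded that spread with shMMSET#2 and not with shMMSET#4. All 3 probe sets end in _s_at. MORF4L2, a paralog with which shared probes are possible, had 25246 with shMMSET#2 and 22931 with shMMSET#4, against 29562 with shLuc, at log2 ratios of -0.23 and -0.37.

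**Figure D2:**
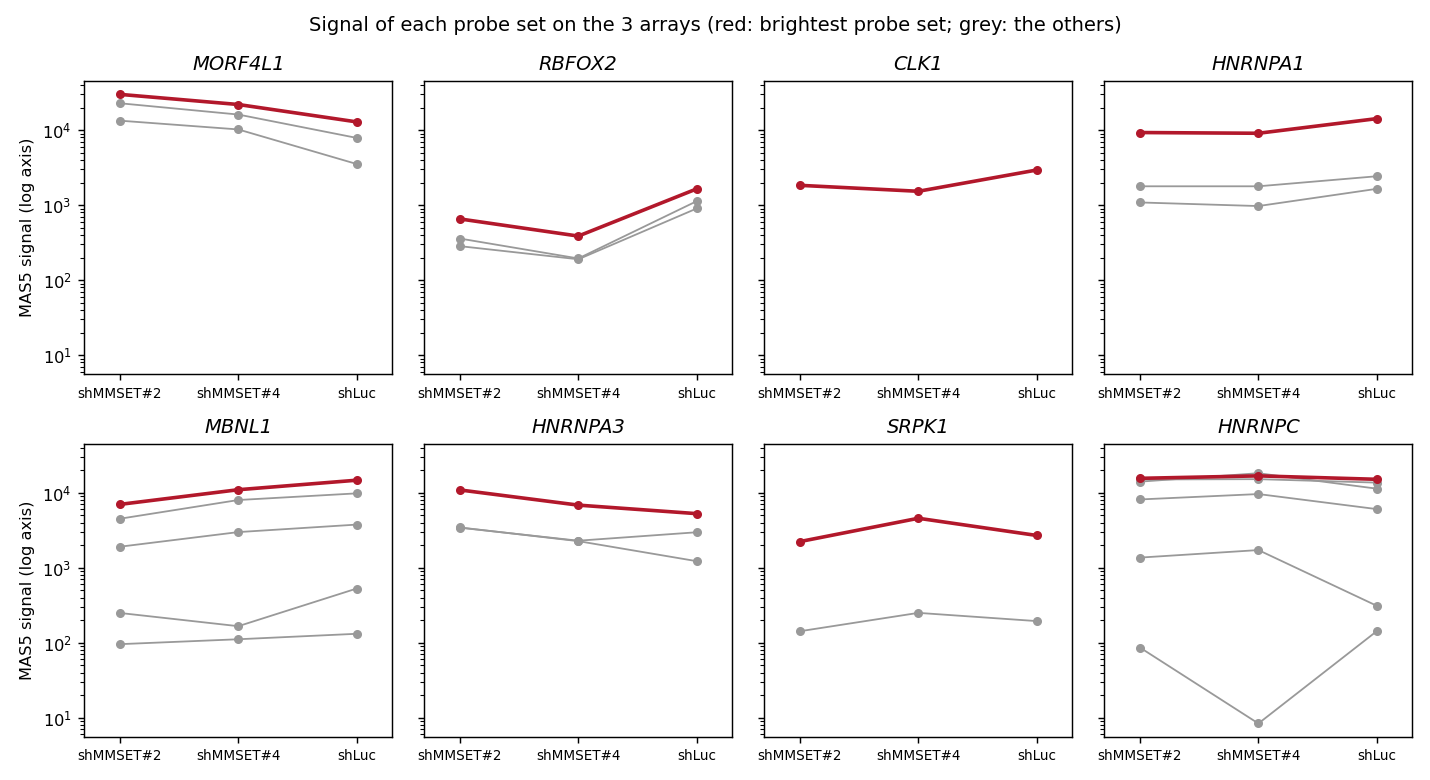
MAS5 signal (log axis) of every probe set above an array's median on the shMMSET#2, shMMSET#4 and shLuc arrays for 8 splicing regulators, with the brightest probe set in red and the others in grey. All probe sets of MORF4L1 are higher and all of RBFOX2 lower with both hairpins. Of the 6 HNRNPC probe sets, 5 lie above shLuc with both and 1 dim one lies below.

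Probe sets of 1 gene did not always run together. At 1.5-fold they disagreed in sign with at least 1 hairpin for SRSF1, SRSF3, SRSF7, SRSF11 and HNRNPC. For SRSF3 and SRSF11 the lower probe set was near or under the floor with both hairpins. It had 59.6 and 54.7, against 90.1 with shLuc, for SRSF3, and 40.7 and 26.9, against 118, for SRSF11. The higher probe set had 4702 and 4515, against 2947 with shLuc, for SRSF3, and 594 and 316, against 228, for SRSF11. For HNRNPC, which binds uridine tracts, the brightest probe set had 15607 with shMMSET#2, 16830 with shMMSET#4 and 15146 with shLuc. A bright _x_at probe set had 14089 and 18260, against 11359 with shLuc, and another had 8160 and 9630, against 6064. Their log2 ratios with shMMSET#4 were 0.68 and 0.67. A dimmer one had 1369 and 1725, against 311 with shLuc. Only 1 of the 6 HNRNPC probe sets above an array's median was below shLuc. That probe set was dim, with 86.6 with shMMSET#2 and 8.4, under the floor, with shMMSET#4, against 143 with shLuc. SRSF1 had 1 probe set with 1335 with shMMSET#2 and 1841 with shMMSET#4, against 1051 with shLuc, and another with 1132 and 820, against 1856. For SRSF7, 1 probe set had 1996 and 2788, against 1332 with shLuc, and another had 2192 and 1559, against 2765. In both genes the pair of probe sets thus ran in opposite directions from shLuc, and the brightest probe set lay within 1.5-fold. The array annotation used here does not place probe sets on exons, introns or transcript ends, so it does not say which transcripts these are.

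Beyond the brightest probe sets, 101 further probe sets of 36 members exceeded an array's median. With shMMSET#4, 28 of them (27.7%) were at least 1.5-fold lower and 11 (10.9%) higher, against 25.9% and 14.5% of the 12124 such probe sets of all tested genes. With shMMSET#2, 14 (13.9%) were lower and 9 (8.91%) higher, against 23.8% and 16.6%. The shares with shMMSET#4 are thus near those of other genes. Lower further probe sets with shMMSET#4 included all 3 of SRSF4, both of U2AF1 and of CLK4, and 3 of 4 of TRA2A, whose brightest probe sets were within 1.5-fold. For SRSF4 these had 865, 200 and 153 with shMMSET#2 and 495, 79.6 and 110 with shMMSET#4, against 938, 218 and 170 with shLuc, while the brightest had 2630, 3182 and 2731 on the 3 arrays. The median signal of all probe sets was 62.0 with shMMSET#2, 59.5 with shMMSET#4 and 77.4 with shLuc. The median mean signal of the members' further probe sets was 1301, against 7686 for their brightest. The median log2 ratios of all tested genes varied by decile of mean signal. They mostly rose with brightness, from -0.34 and -0.32 in decile 2 to 0.09 and 0.04 in decile 8. In the dimmest decile, whose mean signals start at 23.8, under the floor, they were -0.022 and 0. In the brightest decile they were 0.002 and 0.03. The part of this trend in the lower further probe sets was not tested.

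**Figure D3:**
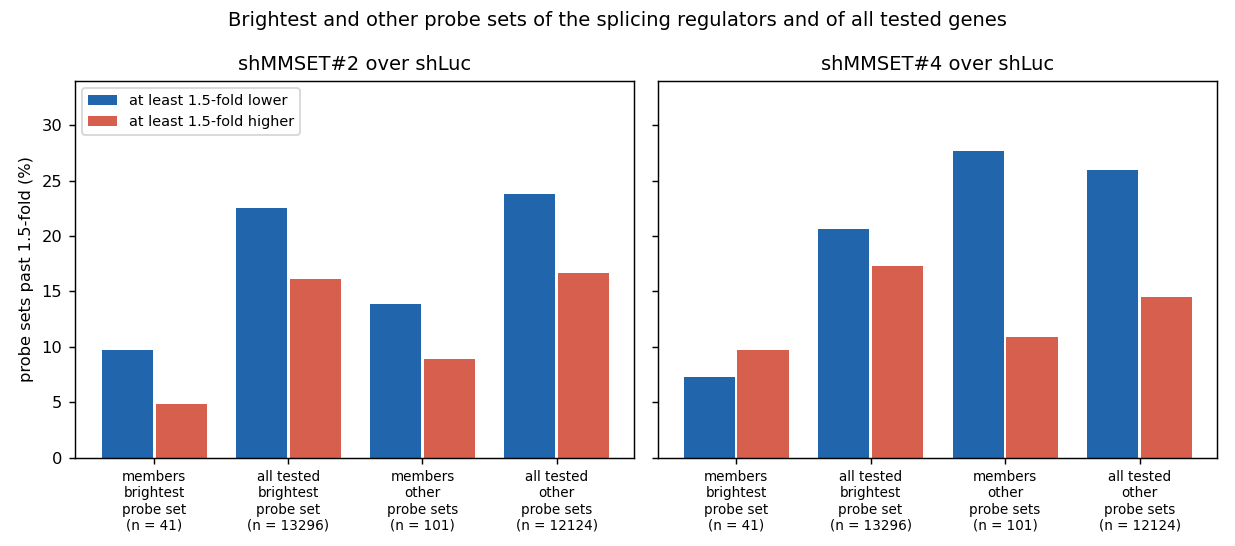
Percentage of probe sets at least 1.5-fold lower (blue) or higher (red) than shLuc, for the brightest and the other probe sets of the splicing regulators and of all tested genes, with shMMSET#2 (left) and shMMSET#4 (right). With shMMSET#4 the other probe sets of the members were lower in 27.7% of cases and their brightest in 7.32%. For all tested genes these shares were 25.9% and 20.6%.

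Further genes of the pathway were taken from lists fixed by name. Of 67 tested core spliceosome genes, 5 were higher and none lower with both hairpins and 62 were neither, with median log2 ratios of 0.17 and 0.03. The highest were LSM3, a subunit of the ring on U6 RNA, with signals of 7429 with shMMSET#2 and 6742 with shMMSET#4, against 2650 with shLuc, and SYF2, with 3216 and 2647, against 1411. SNRPA1, a U2 particle protein, was 1.62-fold and 1.80-fold higher, SNRPD3, a Sm ring protein, 1.87-fold and 1.59-fold, and PRPF31 1.80-fold and 1.54-fold. The share of 5 in 67 (7.46%) is close to the 8.6% of all tested genes that were higher with both, while 0 of 67 were lower, against 11.9% of all tested genes and 5.44% of the brightest 3 deciles.

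Of 39 tested SR-like and hnRNP-like regulators outside the set, 3 were lower with both hairpins, 1 was higher and 35 were neither, with medians of 0.10 and -0.06. SRRM2, a large scaffold of nuclear speckles, had 1238 with shMMSET#2 and 2150 with shMMSET#4, against 3577 with shLuc, RBM4 was 1.70-fold and 2.06-fold lower, and FUBP1 1.65-fold and 1.58-fold lower. KHSRP was 1.52-fold and 1.88-fold higher. These shares, 7.69% lower and 2.56% higher, were below the 11.9% and 8.6% of all tested genes. In the brightest 3 deciles the shares were 5.44% and 9.5%. Against those genes the lower share was above and the higher share below.

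Of 8 tested genes of the exon junction complex and of nonsense-mediated decay, the route that removes unproductive SR protein transcripts, 1 (12.5%) was higher with both hairpins and none was lower, against 8.6% and 11.9% of all tested genes. This was MAGOHB, at 1.67-fold and 1.73-fold. The helicase gene UPF1 of the decay pathway had 610 with shMMSET#2 and 548 with shMMSET#4, against 483 with shLuc. Of 14 tested partners of MORF4L1 and genes of histone H3 lysine 36 methylation, 1 (7.14%) was higher with both hairpins, against 8.6% of all tested genes. The other 13 (92.9%) were within 1.5-fold with both, against 44.9%. These 13 include the targeted gene NSD2, counted on its brightest probe set at 1.46-fold and 1.38-fold lower. At 1.5-fold, 4 of its 6 probe sets were lower with shMMSET#2 and 2 with shMMSET#4. NSD1 was counted on a dim probe set (85.0 and 127, against 98.1 with shLuc). The higher gene was SIN3A, scaffold of a histone deacetylase complex that contains MORF4L1, with 1248 with shMMSET#2 and 1019 with shMMSET#4, against 507 with shLuc. SETD2, which writes the trimethyl mark, had 1357 and 1567, against 1599 with shLuc, and PSIP1, another reader linked to splicing, had 6355 and 6369, against 5043.

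**Figure D4:**
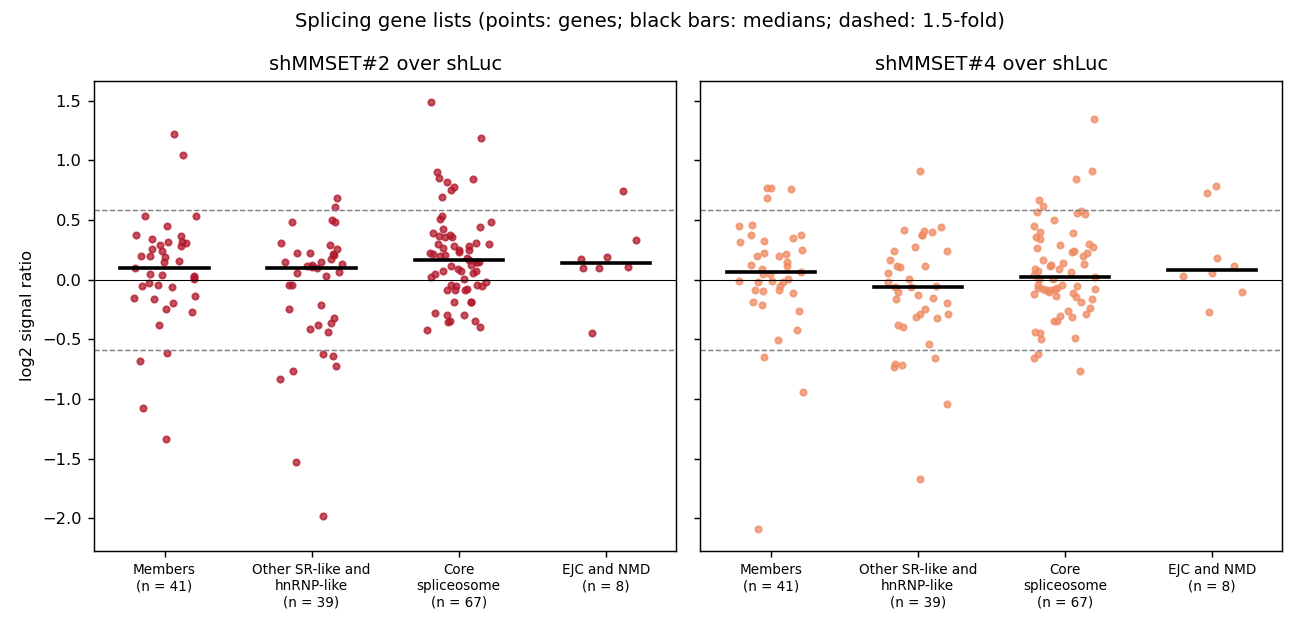
Log2 signal ratio to shLuc of each tested gene (points) with shMMSET#2 (left) and shMMSET#4 (right) for the 41 splicing regulators, 39 other SR-like and hnRNP-like regulators, 67 core spliceosome genes and 8 genes of the exon junction complex (EJC) and nonsense-mediated decay (NMD). Black bars mark the medians, which lie between -0.06 and 0.17, and dashed lines mark 1.5-fold.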

How the data were processed

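Biotin-labelled RNA from 3 arrays, 1 per group, was analysed. The authors' deposited values are linear intensities, 1 per probe set, made with MAS5 per the submitters' processing notes. Its version is not given in the sources used here. Identifiers are those of the HG-U133 Plus 2.0 array, although the submitters' design text gives another array of that family. The 2% trimmed mean was 500.1 on each array, so no rescaling was done. Such scaling takes the total signal of the arrays as equal.

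Gene symbols came from the platform annotation and were updated by Entrez identifier. The 62 control probe sets were left out, 41091 had 1 symbol, 1801 had several and were not named, and 11721 were unnamed. Signals were floored at the 40th percentile (41.2) and log2-transformed. With 1 array per group, genes were described by size at 1.5-fold, with no p-value. No depth is defined for arrays, and their number limits the precision. Alternatives covered scaling, floor, filter, probe set choice and a 2-fold threshold.

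The members and lists were chosen with earlier results of these data known. Members past 1.5-fold with both hairpins or between hairpins, and the brightest of each role, were to be given in full. Others named were chosen after their values were seen. Of each other list, up to 4 genes per direction were to be named, and PRPF31, UPF1, SETD2, PSIP1 and MORF4L2 are named in addition. The steps were tested on simulated data. Values were computed in Python 3.11.15 with pandas 2.3.3 and numpy 2.4.6, and drawn with matplotlib 3.10.9.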

Additional observations from a re-analysis of the deposited data

Results flagged for a closer look

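For 3 members the hairpins lay on opposite sides of shLuc and at least 1.5-fold apart, a difference that was not tested because each group had 1 array. The log2 ratio of shMMSET#4 to shMMSET#2 was 1.03 for SRPK1, 0.59 for MBNL2 and -0.63 for HNRNPF. The dimmer SRPK1 probe set gave 0.81. The dimmer MBNL2 probe sets above the median gave -0.64 and 1.10, so they do not settle its direction. HNRNPF had 1 probe set.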

How the results depend on the processing

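RBFOX2 stayed lower and MORF4L1 higher with both hairpins under all 7 alternatives that could measure each. The floor and filter settings among these left the values of both genes unchanged, so only the other settings could move them. The counts and medians changed with the scaling, the probe set chosen and the threshold. With quantile normalization every count stayed within 1.5 times and every median within 0.1. With no floor, a higher floor, no filter or a filter on mean signal they were the same as in the main processing. The brightest probe sets of the members lie above those limits, so these settings could not alter them. Scaling to equal medians moved all tested genes to a median log2 ratio of 0.25 with shMMSET#2 and 0.34 with shMMSET#4, and that of the members to 0.42 and 0.44, with 0.028 for shMMSET#4 over shMMSET#2 in place of -0.03. It gave 13 members higher with shMMSET#2, 14 with shMMSET#4 and 8 with both, and 2, 1 and 1 lower, when 30.1%, 34.7% and 19.7% of all tested genes were higher and 13.2%, 10.1% and 5.28% lower. When a gene's probe sets were averaged, the members' median with shMMSET#4 became -0.0384, with 7 lower and 2 higher. These were 17.1% and 4.88% of the set, against 16.8% and 12.9% of all tested genes averaged in the same way. With the _x_at and _s_at probe sets left out, only 27 members remained, with medians of -0.011 for shMMSET#4 over shLuc and -0.18 for shMMSET#4 over shMMSET#2. There, 1 member was lower with shMMSET#2, 6 with shMMSET#4 and 1 with both, that is 3.7%, 22.2% and 3.7%. Of all tested genes, 24.3%, 23.4% and 13.7% were lower in that setting. The member lower with both was MBNL1, at log2 ratios of -1.08 and -1.67 on a dimmer probe set. RBFOX2, CLK1 and MORF4L1 were not tested there. HNRNPA1 fell short of 1.5-fold, at -0.45 with each hairpin, and HNRNPC was higher with both, at 2.14 and 2.47. MBNL1 turned to -0.59 for shMMSET#4 over shMMSET#2. At 2-fold, 2 members were lower with shMMSET#2, 1 with shMMSET#4 and 1 with both, 0 were higher with shMMSET#4 or with both, and between the hairpins 1 was higher and 0 lower with shMMSET#4. The cause of these changes was not tested, beyond the fewer members and stricter size by construction. No paired analysis was possible because each group has 1 array.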
